A study of Mus musculus with 16 samples.

Results

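The 7 genes described here encode the receptor chains for the myeloid colony-stimulating factors and the related interleukins of mouse bone marrow: Csf1r, Csf3r, Csf2ra, Il3ra, Il5ra, Csf2rb and Csf2rb2. They were chosen by name, as the receptors of M-CSF, G-CSF, GM-CSF, IL-3 and IL-5, from 47937 gene identifiers in the count tables, and all 7 had counts. Their transcripts were read in 16 RNA-seq libraries of sorted MPP3 and MPP4 cells, multipotent progenitors of the Lin- Sca1+ cKit+ (LSK) compartment with a myeloid and a lymphoid bias, respectively. Libraries of the same genotype and replicate number were taken as 1 mouse. Each of 8 C57BL/6 mice thus gave 1 library of each population, so that MPP3 WT, MPP3 KO, MPP4 WT and MPP4 KO each held 4 libraries.

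Per the sample labels, all 8 mice carried Ebf1fl/fl alleles, WT mice were Tie2Cre+/+ (2 wild-type copies of the locus, thus without the transgene) and KO mice were Tie2Cre +/cre. The series text gives Tie2Cre to both groups and wild-type Ebf1 alleles to the WT mice, so a difference in alleles and a difference in transgene cannot be told apart from these sources. Tie2Cre is active in endothelium and in blood stem cells, so deletion is not limited to MPP3 and MPP4 cells. Mice WT 1 and WT 2 were female and WT 3 and WT 4 male, aged 12, 11, 12 and 11 weeks. Mice KO 1 and KO 2 were male and KO 3 and KO 4 female, aged 10, 9, 11 and 11 weeks. Genotype and age thus overlapped only in part, and no batch was given in the labels.

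Receptors of this group tell progenitors which myeloid growth factor they can answer. The M-CSF receptor Csf1r is a receptor tyrosine kinase of monocytes, macrophages and their progenitors, and the G-CSF receptor Csf3r is a single-chain cytokine receptor of the neutrophil lineage. GM-CSF, IL-3 and IL-5 each bind their own alpha chain, Csf2ra, Il3ra or Il5ra, which pairs with the shared beta chain Csf2rb to signal through Jak2 and Stat5. Mice also have Csf2rb2, a second beta chain that serves IL-3 alone.

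The libraries held between 24823708 and 48703193 counts. Of the genes of the sort gate, Kit, Cd34, Cd48 and Ly6a had counts in every library, while Slamf1 (CD150) reached at most 3.48 CPM (the count scaled by the library total after TMM normalisation). Flt3, which the labels use to gate MPP4, lay between 1159 and 1357 CPM in MPP4 WT and between 255 and 312 CPM in MPP3 WT, and the labels name no exclusion of Flt3+ cells from the MPP3 gate. Counts of the targeted gene Ebf1 ran from 5 to 91 in the MPP3 WT and from 6 to 84 in the MPP3 KO libraries, but from 98 to 263 in MPP4 WT and from 488 to 928 in MPP4 KO. In MPP4 it therefore went against the label, and KO means the libraries labelled KO throughout.

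Csf2rb and Csf2rb2 are neighbours on chromosome 15 (GRCm38), on opposite strands, Csf2rb from 78325752 to 78353847 and Csf2rb2 from 78282507 to 78305721. Their longest coding sequences in the GENCODE annotation were 2688 and 2634 bases long and identical at 95.2% of 2628 aligned bases. Of the 100-base windows of the Csf2rb coding sequence, as long as the reads, 11.0% were also found letter for letter in a Csf2rb2 transcript. A read within such a window cannot by itself be assigned to 1 of the genes, although its mate may lie outside it, so counts of both genes are uncertain, and how many reads were ambiguous was not measured. Over 1208 aligned windows that lay within 1 exon of each gene, the number of differing bases ran from 0 to 16, with a median of 3. The first window without a difference and the window with the most differences are shown, 5′ to 3′ on each gene's strand, to illustrate which reads can separate the paralogs; capitals mark bases that differ.
Csf2rb, exon 15, chr15:78348577-78348676, plus strand: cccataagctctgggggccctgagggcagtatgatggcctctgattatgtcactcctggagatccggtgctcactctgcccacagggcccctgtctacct
Csf2rb2, exon 14, chr15:78284772-78284871, minus strand: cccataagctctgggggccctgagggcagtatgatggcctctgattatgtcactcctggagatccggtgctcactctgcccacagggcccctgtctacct
Csf2rb, exon 5, chr15:78338887-78338986, plus strand: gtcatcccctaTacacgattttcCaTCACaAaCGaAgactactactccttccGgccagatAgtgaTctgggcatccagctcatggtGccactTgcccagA
Csf2rb2, exon 4, chr15:78294345-78294444, minus strand: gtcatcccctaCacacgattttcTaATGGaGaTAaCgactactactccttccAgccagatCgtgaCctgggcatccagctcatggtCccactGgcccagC
The exon 15 window of Csf2rb and the exon 14 window of Csf2rb2 could not be told apart by any read that lay within them, whereas a read over the other pair differed at 16 bases.

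To compare the receptors with each other, levels were expressed per length as TPM, the count over the summed exon length of the gene, scaled to a fixed total per library. For Csf2rb this length was 7277 bases, while its transcript with the longest coding sequence had 4900. Its TPM would be higher at the shorter length, so its ranks beside Il3ra and Csf1r depend on that choice. Csf3r was the most abundant of the 7 in all 4 groups, with a mean of 194 TPM in MPP3 WT, 185 TPM in MPP3 KO, 151 TPM in MPP4 WT and 133 TPM in MPP4 KO, and its libraries lay above those of every other member. Csf2ra, Il3ra and Csf2rb followed in that order in MPP3 WT (62.2, 41.4 and 27.8 TPM), MPP3 KO (68.1, 44.7 and 31.7 TPM) and MPP4 WT (58.7, 41.1 and 21.3 TPM). The libraries of Csf2ra and Il3ra overlapped in MPP3 WT and those of Il3ra and Csf2rb overlapped in MPP3 KO, so these neighbours could not be ordered there. Csf1r stood at rank 5 in the same 3 groups, at 10.3, 16.7 and 15.8 TPM. In MPP4 KO its mean of 29.5 TPM stood above the 23.2 TPM of Csf2rb, but the libraries of Csf2ra, Il3ra, Csf1r and Csf2rb formed a chain of overlapping neighbours. Csf2rb2 (3.01 to 3.95 TPM as group means) and Il5ra (0.222 to 1.97 TPM) were lowest in all 4 groups, and their libraries overlapped in MPP3 WT alone.

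**Figure D1:**
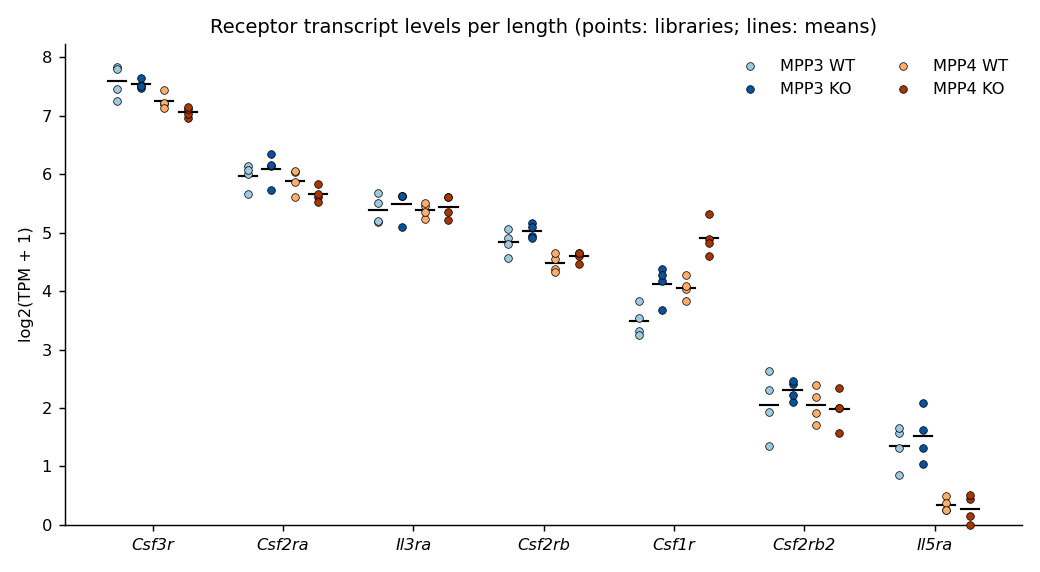
Level per length of each receptor chain as log2(TPM + 1), with 1 point per library, a line at the mean and 4 libraries in each group; genes run from the highest to the lowest mean in MPP3 WT. Csf3r lies above every other member in all 4 groups, and Csf1r moves up to the level of Csf2rb in MPP4 KO. The level of Csf2rb depends on the exon length used for it.

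The comparison of MPP3 with MPP4 asked how receptor transcripts are divided between the myeloid-biased and the lymphoid-biased progenitors. Csf3r and Csf2rb were higher in MPP3, and Csf1r was lower in MPP3, in WT and in KO mice alike. Csf2ra was higher in MPP3 in KO mice. In an edgeR fit of all 16 libraries, 3 of the 6 members that passed the filter on low counts were called in WT (FDR under 0.1), where 15.1% of 11831 genes were called. Of these, 2 were higher in MPP3 (6.8% of all genes were) and 1 lower (8.33%). In KO, 4 of 6 were called, where 17.9% of all genes were called, 3 of them higher in MPP3 (8.71% of all genes were) and 1 lower (9.18%). The libraries of MPP3 and MPP4 did not overlap for 3 of 6 members in KO (Csf1r, Csf3r and Csf2rb), as for 17.2% of all genes, and overlapped for all 6 in WT, where 15.9% of all genes did not. In bulk RNA, a smaller share of cells that express a receptor and less RNA per cell cannot be told apart.

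Csf1r (ENSMUSG00000024621.15, chromosome 18, 61100598 to 61132149, plus strand) had 18.4, 21.0, 17.6 and 27.8 CPM in MPP3 WT replicates 1 to 4 and 26.8, 30.9, 37.4 and 33.5 CPM in MPP4 WT. In KO mice it had 24.7, 37.1, 42.9 and 38.2 CPM in MPP3 and 49.2, 63.2, 85.2 and 56.3 CPM in MPP4. All 4 MPP4 KO libraries were above all MPP3 KO libraries, whereas in WT the highest MPP3 library passed the lowest MPP4 library. Within each mouse, the MPP3 library was the lower in 8 of 8 mice. The difference was -0.60 ± 0.20 (log2 fold change ± SE; edgeR FDR 0.0595) in WT and -0.83 ± 0.19 (edgeR FDR 0.00796) in KO, or 0.660 and 0.563 of the MPP4 level. The WT call did not hold in 8 of the 24 fits that left out a library or a mouse (FDR up to 0.348, differences from -0.76 to -0.44), while the KO call held in all 24. Of the exon length of Csf1r, 15.1% overlaps Hmgxb3 on the opposite strand, a gene with at most 1199 counts in a library, and it is not stated whether the counting used strand.

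The summed markers of granulocyte and monocyte progenitors and of monocytes were higher in MPP3 WT, opposite to Csf1r. The 6 markers of granulocyte and monocyte progenitors, which include Mpo and Elane, summed to 5621 to 9412 CPM in MPP3 WT and 2029 to 2703 CPM in MPP4 WT. The 9 monocyte and macrophage markers summed to 429 to 568 CPM in MPP3 WT and 306 to 321 CPM in MPP4 WT, with Fcgr1 at no more than 1.29 CPM in any library. Lyz2 made up most of that sum, at 336 ± 19.7 and 268 ± 11.3 CPM. Within that list Cx3cr1 went the other way, at 3.73 ± 1.92 CPM in MPP3 WT and 7.71 ± 1.22 CPM in MPP4 WT. Fcgr1 also had a lower mean in MPP3 WT, with overlap (0.453 ± 0.361 against 0.654 ± 0.510 CPM). Adgre1 was level, at 0.916 ± 0.873 and 0.907 ± 0.516 CPM. The 6 dendritic cell markers summed to 97.0 to 121 CPM in MPP3 WT and 116 to 142 CPM in MPP4 WT, ranges that overlapped. Bst2 alone made up most of that sum, at 105 ± 9.58 and 125 ± 12.7 CPM, and Zbtb46 had 0.854 ± 0.860 and 0.684 ± 0.387 CPM. Itgax, at 0.863 to 1.34 CPM in MPP3 WT and 2.85 to 5.69 CPM in MPP4 WT, did not overlap between the populations and was lower in MPP3 WT, as Csf1r was. Siglech had a lower mean in MPP3 WT too (0.405 ± 0.302 against 0.995 ± 0.647 CPM), with overlapping ranges. In each of these lists every marker had a count in every group, and their part in the differences of the receptors was not tested.

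Csf3r (ENSMUSG00000028859.14, chromosome 4, 126024550 to 126044440, plus strand) had 291, 276, 196 and 229 CPM in MPP3 WT replicates 1 to 4 and 187, 215, 186 and 182 CPM in MPP4 WT. In KO mice it had 231, 250, 269 and 236 CPM in MPP3 and 163, 179, 188 and 182 CPM in MPP4. The KO populations did not overlap, and the WT populations overlapped through MPP3 WT 3 and MPP4 WT 2. MPP3 was the higher population in 8 of 8 mice, with a difference of 0.37 ± 0.10 (edgeR FDR 0.0281) in WT and 0.47 ± 0.10 (edgeR FDR 0.00494) in KO. The WT call was lost without mouse WT 1 (FDR 0.145).

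Of the alpha chains, that of the GM-CSF receptor, Csf2ra (ENSMUSG00000059326.6, chromosome 19, 61223957 to 61228429, minus strand), had 71.1, 62.2, 51.2 and 68.9 CPM in MPP3 WT and 48.3, 64.0, 66.1 and 59.3 CPM in MPP4 WT. These WT groups overlapped throughout, and the difference of 0.09 ± 0.14 had a 95% interval from -0.21 to 0.39. In KO mice Csf2ra had 53.9, 75.5, 76.0 and 83.2 CPM in MPP3 and 50.4, 53.9, 61.1 and 46.0 CPM in MPP4. Here 3 of the 4 MPP3 libraries lay above all MPP4 libraries, a difference of 0.45 ± 0.14 (edgeR FDR 0.0441) that lost its call in 6 of 24 fits with a library or a mouse left out (FDR up to 0.246). The test of whether the population difference itself changed with genotype gave 0.36 ± 0.20 (edgeR FDR 1.00, unadjusted p = 0.0931 in that fit), so a difference between the genotypes was not shown.

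The IL-3 receptor alpha chain, Il3ra (ENSMUSG00000068758.7, chromosome 14, 14346275 to 14356011, plus strand), had 53.0, 35.9, 38.0 and 47.8 CPM in MPP3 WT and 45.0, 37.4, 46.6 and 43.0 CPM in MPP4 WT. Its KO libraries had 35.7, 54.2, 54.0 and 52.1 CPM in MPP3 and 43.1, 54.2, 53.7 and 38.5 CPM in MPP4. MPP3 was the higher population in 4 of 8 mice and the lower in 4. The differences were 0.02 ± 0.16 in WT, with a 95% interval from -0.31 to 0.36, and 0.05 ± 0.16 in KO, with an interval from -0.28 to 0.38.

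The IL-5 receptor alpha chain, Il5ra (ENSMUSG00000005364.11, chromosome 6, 106710357 to 106749037, minus strand), was the member nearest to the limit of detection. The MPP3 WT libraries held 34, 62, 80 and 110 of its counts and the MPP4 WT libraries 22, 7, 18 and 11, or 2.04 ± 0.764 and 0.345 ± 0.129 CPM (SD, n = 4). In KO mice the MPP3 libraries held 53, 132, 106 and 77 counts and the MPP4 libraries 0, 18, 4 and 20. No MPP4 library reached the lowest MPP3 library of its genotype, and MPP3 was the higher population in 8 of 8 mice. The MPP4 KO library at 0 allows up to 0.0862 CPM, taking 3 counts as the limit and counting error alone.

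No group of Il5ra reached the mean of 100 counts that the filter required, so it was not among the 6 members tested over 16 libraries. With the filter removed or replaced by that of edgeR (filterByExpr), its difference between populations was 2.53 in WT (edgeR FDR 0.0402 and 0.0302) and 3.13 in KO (edgeR FDR 0.0101 and 0.00859) on the log2 scale. In these fits 5.65% and 10.7% of all genes were called in WT, and 6.97% and 13% in KO. Markers of cells that depend on IL-5 or IL-3 moved with it, as did marker sums of other cell types. The 8 eosinophil markers summed to 30.5 to 65.0 CPM in MPP3 WT and 4.14 to 11.4 CPM in MPP4 WT, with Ear1 and Ear6 at 0 in MPP4 WT. The 10 mast cell and basophil markers summed to 269 to 353 CPM in MPP3 WT and 27.3 to 50.3 CPM in MPP4 WT, with Cma1, Gzmb, Mcpt4 and Tpsb2 at 0 in MPP4 WT. Some single markers of that list overlapped between the populations, such as Prss34 (3.15 to 57.7 CPM in MPP3 WT and 1.41 to 21.3 CPM in MPP4 WT). Neutrophil markers summed to 12.8 to 47.8 CPM in MPP3 WT and 1.71 to 8.72 CPM in MPP4 WT. Erythroid and megakaryocyte markers summed to 144 to 176 and 28.7 to 58.5 CPM, in the same order. T cell and NK cell markers, mostly Nkg7, summed to 417 to 574 and 228.5 to 325 CPM. Sums of dendritic cell markers and of B cell and plasma cell markers overlapped between MPP3 WT and MPP4 WT. The part of any of these cells in the Il5ra counts was not tested.

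The shared beta chain Csf2rb (ENSMUSG00000071713.4) had 84.1, 72.3, 58.9 and 71.4 CPM in MPP3 WT and 57.4, 49.5, 61.4 and 50.4 CPM in MPP4 WT. In KO mice it had 91.3, 91.8, 81.3 and 76.5 CPM in MPP3 and 62.3, 67.1, 58.6 and 62.7 CPM in MPP4. The KO populations did not overlap, and the WT populations overlapped only through replicate 3, the mouse in which MPP4 was the higher. MPP3 was the higher population in 7 of 8 mice, with a difference of 0.39 ± 0.10 (edgeR FDR 0.0213) in WT and 0.44 ± 0.10 (edgeR FDR 0.00815) in KO. The WT call was lost without mouse WT 2 or mouse WT 4 (FDR up to 0.125).

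The IL-3-specific beta chain Csf2rb2 (ENSMUSG00000071714.5) had 8.72, 6.40, 4.80 and 2.67 CPM in MPP3 WT and 7.12, 5.83, 3.76 and 4.71 CPM in MPP4 WT. In KO mice it had 7.43, 8.04, 5.87 and 6.29 CPM in MPP3 and 7.04, 5.39, 5.43 and 3.33 CPM in MPP4. The groups overlapped in both genotypes, and the differences of 0.07 ± 0.32 in WT and 0.38 ± 0.32 in KO had 95% intervals from -0.60 to 0.75 and from -0.29 to 1.05. Its spread between replicates was wide, with an SD of 45.3% of the mean in MPP3 WT, against 14.4% for Csf2rb in the same libraries.

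Csf2rb took nearly all counts of the pair. Its share of the summed Csf2rb and Csf2rb2 counts was 92.8% ± 2.5 in MPP3 WT, 92.5% ± 0.549 in MPP3 KO, 91.0% ± 2.39 in MPP4 WT and 92.2% ± 2.13 in MPP4 KO (SD, n = 4 each). Single libraries ran from 89.0% (exact binomial 95% interval 87.7% to 90.1%, counting error only) in MPP4 WT 1 to 96.4% (95.7% to 97.0%) in MPP3 WT 4. A 2-sided exact permutation test found no difference beyond the spread between mice for KO against WT in MPP3 (p = 0.943) or in MPP4 (p = 0.429), where the smallest possible p is 0.0286. Paired by mouse, MPP3 exceeded MPP4 by 1.05 ± 2.5 percentage points (SD of 8 differences), and was the higher in 5 of 8 mice (2-sided exact sign-flip permutation test, p = 0.281, smallest possible 0.00781). Adjusted over the 3 tests, the p-values were 0.943, 0.643 and 0.643 for these exact tests.

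**Figure D2:**
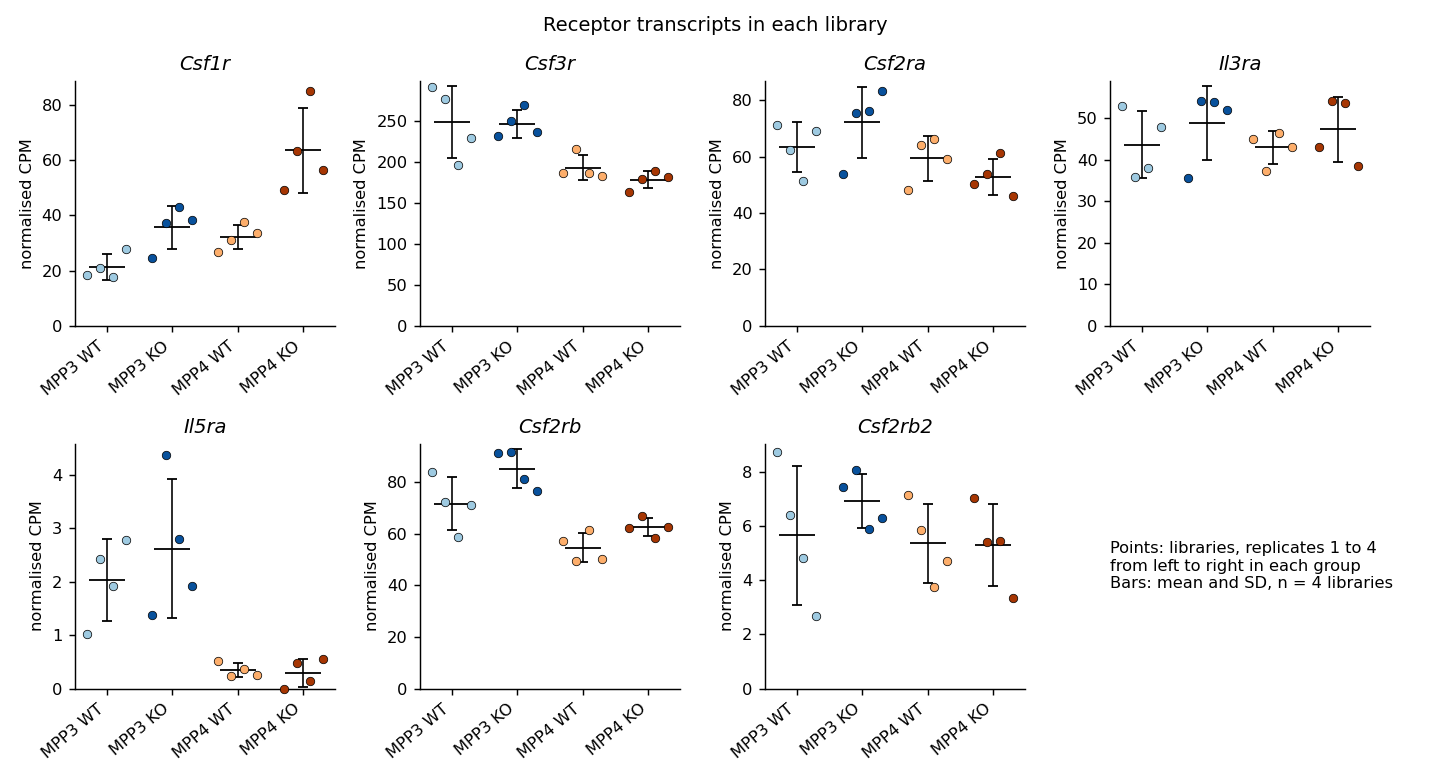
Level of each receptor chain in each library in normalised CPM, with replicates 1 to 4 from left to right in each group; black bars give the mean and SD of 4 libraries. Csf1r is lowest in MPP3 WT and highest in MPP4 KO, Csf3r and Csf2rb are higher in MPP3, Il5ra is near 0 in MPP4, and the groups of Il3ra and Csf2rb2 overlap.

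The comparison of KO with WT asked whether the libraries labelled as lacking Ebf1 differ in their receptor transcripts. No member passed the threshold with edgeR in MPP3, where 0.0676% of all genes were called, or in MPP4, where 0.0169% were. At an unadjusted p under 0.05, edgeR gave 2 of 6 members in MPP3 (Csf1r and Csf2rb) and 1 in MPP4 (Csf1r), against 10.5% and 12.8% of all genes. With a DESeq2 Wald test, 1 member was called in each population, Csf1r, where DESeq2 called 1.82% and 2.58% of all genes.

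Csf1r had the largest difference of the 6 tested members. Over the libraries listed above, the MPP3 mean was 35.7 ± 7.77 CPM for KO against 21.2 ± 4.65 for WT, and the MPP4 mean 63.4 ± 15.6 against 32.2 ± 4.47 CPM (SD, n = 4). In MPP4 every KO library exceeded every WT library, as was the case for 2.83% of all genes, and in MPP3 the lowest KO library was below the highest WT library. The fold was 1.68 in MPP3 and 1.97 in MPP4, each past its threshold in the DESeq2 test (FDR 0.0185 and 0.000385) and short of it in edgeR (FDR 0.171 and 0.110). Of the fits that left out a library or a mouse, all 24 in each population kept the direction, and edgeR called Csf1r in 2 of them in MPP3 and in 5 in MPP4. With age as a term the edgeR FDR was 0.277 in MPP3 and 0.259 in MPP4, and with sex as a term it was 0.129 and 0.0554. The study names Csf1r among the genes it examined in these samples, so its value is no independent evidence.

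Sums of markers of other cell types are given beside these contrasts. The granulocyte and monocyte progenitor markers summed to 6691 to 15730 CPM in MPP3 KO (median 13930) against 5621 to 9412 CPM in WT (median 8120), and in MPP4 to 2386 to 3617 CPM against 2029 to 2703 CPM. The monocyte and macrophage markers summed to 501 to 900 CPM in MPP3 KO and 299 to 404 CPM in MPP4 KO, against 429 to 568 and 306 to 321 CPM in WT. These ranges overlapped between the genotypes in each population. Of the single markers of these lists, Ctsg, F13a1 and Cx3cr1 did not overlap between the genotypes in MPP4, and none separated them in MPP3. Ctsg had 213 to 265 CPM in MPP4 KO and 96.5 to 142 CPM in MPP4 WT. F13a1 had 31.8 to 62.3 CPM in MPP4 KO and 18.6 to 21.3 CPM in MPP4 WT, and Cx3cr1 had 11.9 to 14.8 and 6.24 to 8.75 CPM. These markers were higher in MPP4 KO, as Csf1r was, and were picked out after their values were seen. Other markers of the lists had overlapping ranges, some with a lower mean in MPP4 KO, such as Fcgr1 (0.361 ± 0.329 against 0.654 ± 0.510 CPM), Cd14 (0.281 ± 0.390 against 0.494 ± 0.540 CPM) and Elane (a mean of 32.8 and a range of 12.3 to 50.02 CPM, against 33.4 and 11.7 to 43.1 CPM). The dendritic cell markers summed to 108 to 135 CPM in MPP3 KO and 141 to 197 CPM in MPP4 KO, against 97.0 to 121 and 116 to 142 CPM in WT. Siglech had 1.83 to 3.95 CPM in MPP4 KO and 0.0470 to 1.46 CPM in MPP4 WT, without overlap, but its mean was lower in MPP3 KO than in MPP3 WT (0.130 ± 0.166 against 0.405 ± 0.302 CPM), with overlap. Itgax in MPP3 (0.768 ± 0.952 against 1.02 ± 0.221 CPM) and Xcr1 in MPP4 (0.273 ± 0.175 against 0.354 ± 0.254 CPM) also had lower means in KO, with overlap. The 10 B cell and plasma cell markers summed to 198 to 399 CPM in MPP3 KO against 371 to 1392 CPM in WT, and in MPP4 to 1185 to 1373 CPM against 1171 to 1277 CPM. The ranges of these sums overlapped too, although Cd79a and Igkc were lower in KO without overlap in both populations, as were Jchain and Mzb1 in MPP3. Other markers of that list had higher means in KO with overlapping ranges, such as Vpreb1 in MPP3 (1.15 ± 0.292 against 0.858 ± 0.277 CPM), and Ighm (1189 ± 87.5 against 1119 ± 45.3 CPM) and Cd79b (83.7 ± 6.23 against 78.8 ± 4.68 CPM) in MPP4. Whether such cells took part in the Csf1r difference was not tested.

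Summing the MPP3 and MPP4 counts of each mouse gave 1 value per animal. For Csf1r these were 22.7, 26.3, 28.4 and 30.8 CPM in mice WT 1 to WT 4 and 36.6, 51.9, 60.7 and 46.8 CPM in mice KO 1 to KO 4. Csf2rb had 67.8, 59.9, 60.6 and 60.5 CPM in the WT mice and 78.1, 78.6, 72.0 and 69.8 CPM in the KO mice. In both genes every KO mouse was above every WT mouse, as were 3.54% of the 12661 genes tested. Each population weighs in these sums by its library total. MPP4 had the larger total in every WT mouse and in KO 2, and MPP3 had it in KO 1, KO 3 and KO 4. Csf2rb was higher and Csf1r lower in MPP3, so the sums depend on this mix, whose part was not tested. The differences between KO and WT sums were 0.86 ± 0.15 for Csf1r (edgeR FDR 0.117) and 0.26 ± 0.07 for Csf2rb (edgeR FDR 0.169). For Csf2rb this was above the differences within MPP3 (0.25) and within MPP4 (0.20). Of the 7 members, all tested in the sums, edgeR called 0, against 0.0553% of all genes, while 2 had an unadjusted p under 0.05 (13.6% of all genes did) and DESeq2 called these same genes (FDR 1.84e-05 and 0.0536), where it called 4.58% of all genes.

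Csf3r, Csf2ra, Il3ra, Csf2rb, Csf2rb2 and Il5ra had overlapping libraries in both contrasts of KO with WT. Csf3r differed by -0.01 ± 0.10 in MPP3 and by -0.11 ± 0.10 in MPP4, with 95% intervals from -0.23 to 0.21 and from -0.33 to 0.10. For Csf2ra the interval was -0.11 to 0.49 within MPP3 and -0.47 to 0.13 within MPP4. For Il3ra it was -0.17 to 0.50 and -0.19 to 0.47, in the same order. These ranges leave room for differences of either sign. For Csf2rb the interval was 0.03 to 0.47 in MPP3 (edgeR FDR 0.421) and -0.03 to 0.42 in MPP4 (edgeR FDR 0.449). Csf2rb2 had the least precise estimates, with intervals from -0.38 to 0.96 and from -0.69 to 0.66. Il5ra had 2.62 ± 1.30 CPM in MPP3 KO against 2.04 ± 0.764 CPM in MPP3 WT, and 0.294 ± 0.262 against 0.345 ± 0.129 CPM in MPP4, with overlapping libraries in each population. A genotype effect that differed between the populations was not shown for any member: the edgeR interaction test called 0 members and 0 of all genes, with 2.28% of all genes but 0 members at an unadjusted p under 0.05.

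**Figure D3:**
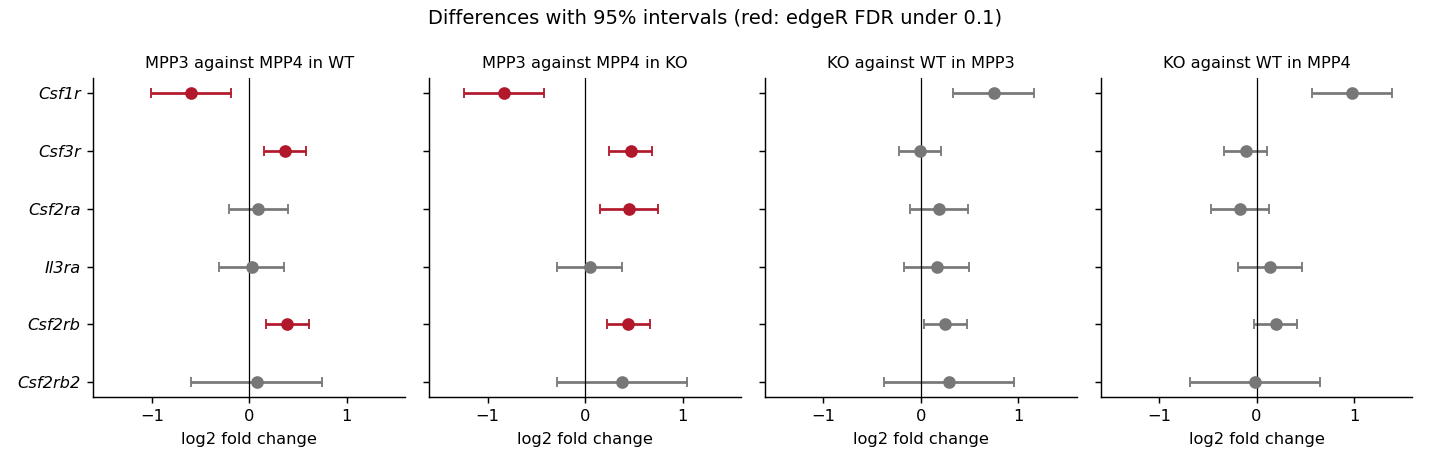
Log2 fold changes of the 6 receptor chains that passed the filter, with 95% intervals from the edgeR fit of 16 libraries; red marks an FDR under 0.1. Csf1r lies left of 0 for MPP3 against MPP4 and right of 0 for KO against WT, and Csf3r and Csf2rb lie right of 0 for MPP3 against MPP4.

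The profiles of the members over the 16 libraries were compared with those of all other tested genes by Pearson correlation of log2(CPM + 1), as a description over libraries that share mice and groups. The closest to Csf1r were Rab7b (r = 0.927) and Fau (r = 0.915), and the closest to Csf3r were Hk1 (r = 0.930) and Pafah2 (r = 0.912). Csf2rb was closest to Lbp (r = 0.903) and Gstm5 (r = 0.882), Csf2ra to Timm29 (r = 0.873) and Scnn1a (r = 0.867), and Il3ra to Ndufv3 (r = 0.857) and Tapbp (r = 0.821). Csf2rb2 had the weakest partners, C8g (r = 0.798) and Vill (r = 0.767). No member was among the closest genes of another member, the paralogs included.

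Of the ligand genes, Csf1 was detected in every library and the other 5 were at or near 0 counts. Csf3, Il3 and Il34 had 0 counts in all 16 libraries, which allows up to 0.118 CPM in the shallowest library, Csf2 had at most 3 counts and Il5 at most 7. Csf1, which encodes M-CSF, had 111 to 420 counts and was the only 1 of 6 ligand genes that passed the filter. Its group means were 6.63 ± 1.41 CPM in MPP3 WT, 8.86 ± 1.79 in MPP3 KO, 5.89 ± 1.06 in MPP4 WT and 5.71 ± 2.44 in MPP4 KO (SD, n = 4), and it was called in none of the 6 comparisons, with an unadjusted p under 0.05 in 1 of them, MPP3 against MPP4 in KO.

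Of 30 genes that carry or restrain signals of these receptors, all tested, edgeR called 7 between the populations in WT, 3 higher and 4 lower in MPP3, where 15.1% of all genes were called, 6.8% higher and 8.33% lower. The median difference of the list was -0.06, against -0.00 over all tested genes. Stat5a, a transcription factor activated by the shared beta chain, was higher in MPP3 WT (136 ± 14.1 CPM) than in MPP4 WT (85.3 ± 3.61 CPM; 0.67 ± 0.08, edgeR FDR 1.15e-05). Stat3, activated by the G-CSF receptor, was also higher in MPP3 (0.35 ± 0.07, edgeR FDR 0.00279). The adaptor Dok2 and the phosphatase Inpp5d (SHIP1), which restrain such signals, were lower in MPP3 (-0.79 ± 0.13 and -0.39 ± 0.10, edgeR FDR 0.000475 and 0.0187). In KO, 6 were called, 3 in each direction, where 17.9% of all genes were called, with Stat5a (0.70 ± 0.08), Stat3 (0.53 ± 0.07) and the kinase Jak1 (0.37 ± 0.06) higher and the feedback inhibitor Socs2 lower in MPP3. Socs2 had 3.32 ± 1.52 CPM in MPP3 KO and 36.4 ± 8.25 CPM in MPP4 KO. None of the 30 was called between KO and WT in either population with edgeR, where 0.0676% and 0.0169% of all genes were called in MPP3 and MPP4. An unadjusted p under 0.05 was found for 5 of 30 in MPP3, where 10.5% of all genes had one, and for 13 of 30 in MPP4, where 12.8% had one.

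Among 26 receptors for other cytokines, of which 23 were tested, 19 were called between the populations in WT, 5 higher and 14 lower in MPP3, with a median of -0.42, where 15.1% of all genes were called, 6.8% higher and 8.33% lower. In KO 18 were called, 5 higher and 13 lower, with a median of -0.47, where 17.9% of all genes were called, 8.71% higher and 9.18% lower. Kit, the receptor of stem cell factor, was higher in MPP3 KO (666 ± 22.5 CPM) than in MPP4 KO (407 ± 23.1 CPM; 0.71 ± 0.07, edgeR FDR 1.66e-06). Ifnar2, a chain of the type I interferon receptor, was lower in MPP3 in WT (-0.67 ± 0.07, edgeR FDR 3.07e-06) and in KO (-0.62 ± 0.07, edgeR FDR 5e-06). Flt3 is a marker on which MPP4 cells were gated, and Kit belongs to the LSK gate of both populations. Between KO and WT, edgeR called Lifr in MPP3, with 0 counts in all WT libraries and 0.481 ± 0.366 CPM in KO, and Kit in MPP4 (-0.42 ± 0.07, edgeR FDR 0.0560).

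**Figure D4:**
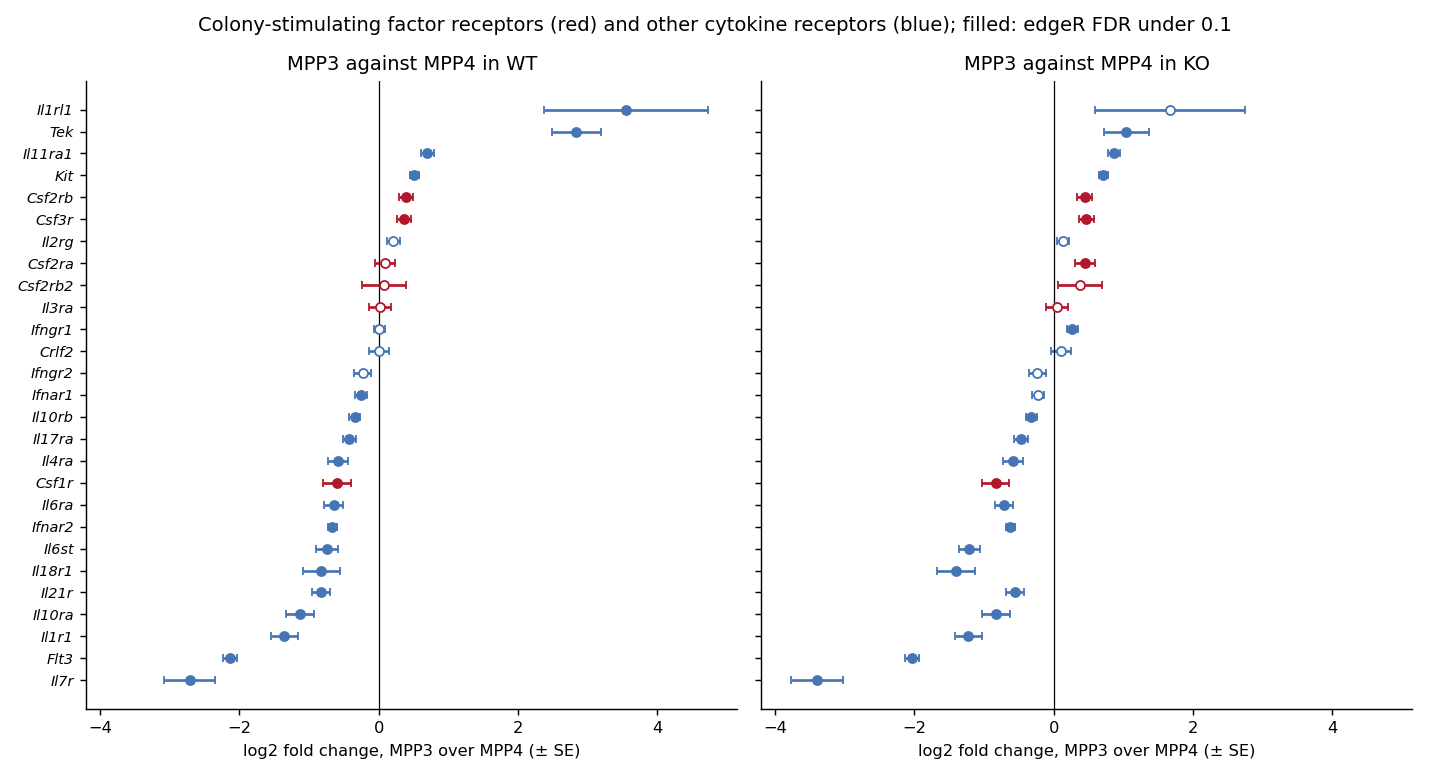
Log2 fold change of MPP3 over MPP4 with its SE from the edgeR fit, in WT and in KO, for the 6 tested colony-stimulating factor receptors (red) and 21 other cytokine receptors (blue), ordered by the WT value; filled points have an FDR under 0.1. Lifr is left out because all MPP3 WT libraries had 0 counts, 1 further receptor is not reported here, and most blue points lie left of 0 while Csf1r is the only red point there.

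Of 14 transcription factors known to act on myeloid receptor genes, all tested, 4 were called between the populations in WT, 3 higher and 1 lower in MPP3, and 5 in KO, where 15.1% and 17.9% of all genes were called. Gata2, Gata1 and Cebpe were higher in MPP3. Gata2, a factor of stem cells and mast cells, had 172 ± 27.0 CPM in MPP3 WT and 49.4 ± 14.1 CPM in MPP4 WT, and Cebpe, a factor of late granulocytes, 13.2 ± 3.52 and 1.11 ± 0.155 CPM. Irf8, a factor of monocytes and dendritic cells, was lower in MPP3, at 89.1 ± 14.9 against 252 ± 55.6 CPM (-1.50 ± 0.22, edgeR FDR 0.000147), the same direction as Csf1r. None was called between KO and WT with edgeR, where 6 had an unadjusted p under 0.05 in MPP3 (10.5% of all genes did) and 3 in MPP4 (12.8% did).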

How the data were processed

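The RNA of the sorted cells was sequenced as paired-end reads of 100 bases. Per the labels, the authors used STAR 2.7.3a, the mouse build mm10 and, for the gene counts, featureCounts 2.0.0. The deposited raw counts of each population were used, with no normalisation by the authors. The deposited normalised table was not used. Annotation release and strand use of the counting are not given in the sources used here. Symbols, coordinates and exon lengths came from GENCODE M21 (GRCm38), which matched 47310 of 47937 identifiers.

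Tests used edgeR 4.0.16 under R 4.3.3 on genes whose mean count exceeded 100 in at least 1 group (TMM, quasi-likelihood F-test, legacy deviances), with all 16 libraries in 1 fit, 1 mean per group and Benjamini-Hochberg adjustment over all genes tested. An FDR under 0.1 was called. The members, their lists and the tests were chosen with earlier results of these data known. Every member is named. The genes with the 2 highest correlations to each tested member, and at most 4 called genes per list and comparison, those with the smallest p-values, are named too, besides genes given as markers. Some genes of the lists are not reported here. Alternatives included DESeq2 1.42.0. Tests were checked on simulated counts. Replicates are mice, and the labels give the same number, sex and age to both libraries of a mouse. Deviations from the group means correlated at 0.271 to 0.551 for the 8 pairs of libraries with the same number and at -0.457 to 0.313 for 24 other pairs. These ranges overlapped, so the pairing of libraries by number rests on the labels and was not settled by the counts. Replicates of a group differed beyond sampling noise (chi-square per gene of 31.2 to 114.3 over 24 pairs, where noise gives about 1). Reads carried no molecular identifiers, so binomial intervals of read shares and limits from 0 counts cover counting error only, while edgeR's intervals of fold changes include the spread between mice.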

Additional observations from a re-analysis of the deposited data

Results flagged for a closer look

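In a group of 4 libraries, a value was singled out when its gap to the nearest of the others, relative to the range of the group, passed Dixon's limit, which chance alone passes in about 1 of 20 groups. Of 28 sets of 4 libraries, 7 members in 4 groups each, 2 passed. Csf3r in MPP4 WT 2 had 214.8 CPM, above the other 3 libraries of its group at 182.1 to 186.5 CPM. Il3ra in MPP3 KO 1 had 35.7 CPM, below the other 3 at 52.1 to 54.2 CPM.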

How the results depend on the processing

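Over all members, comparisons and alternatives, 995 of 1075 values kept their direction and their side of the threshold, 17 lost and 16 gained a call, and 47 changed sign. Without a library or a mouse in turn, the number of members called ranged from 1 (without mouse WT 1 or mouse WT 2) to 4 for MPP3 against MPP4 in WT, and from 0 to 1 for KO against WT in MPP3, in MPP4 and in the sums by mouse. The 4 arose where Il5ra passed the filter once MPP3 KO 1 was left out. Over all genes, these fits called 9.62% to 15.3% for MPP3 against MPP4 in WT. For KO against WT they called 0.00838% to 1.16% in MPP3, 0.00843% to 0.414% in MPP4 and 0.00784% to 0.411% in the sums. For KO against WT, DESeq2 called 1 member in MPP3, 1 in MPP4 and 2 in the sums, against 1.82%, 2.58% and 4.58% of all genes. Sex as a term gave 1 in MPP4 and 1 in the sums, against 1.55% and 1.85% of all genes. Only the compared libraries gave 1 in MPP4, against 0.182% of all genes. Bias-adjusted deviances, an alternative added after the data were seen, also gave 1 in MPP4, against 0.313%. The main fit called 0.0169% of all genes in MPP4 and 0.0553% in the sums. The cause was not tested. The values that changed sign had intervals across 0 in the fit of all libraries. Csf3r for KO against WT in MPP3 was 0.001 with no filter on low counts, 0.009 with filterByExpr and 0.001 with sex as a term, and Csf2rb2 for KO against WT in MPP4 was 0.019 with sex as a term. With a library or mouse left out, MPP3 against MPP4 in WT ranged from -0.047 to 0.238 for Csf2ra, -0.217 to 0.310 for Csf2rb2 and -0.083 to 0.125 for Il3ra, and in KO from -0.065 to 0.173 for Il3ra. KO against WT ranged from -0.108 to 0.077 for Csf3r in MPP3 and -0.184 to 0.157 for Csf2rb2 in MPP4, and in the sums from -0.004 to 0.130 for Csf2ra and -0.071 to 0.043 for Csf3r. The interaction ranged from -0.091 to 0.140 for Csf2rb and -0.091 to 0.15 for Il3ra. The mouse as a replicate block changed no call of a member: 3 were called in WT and 4 in KO, and Csf1r was at -0.61 (edgeR FDR 0.00320) and -0.83 (0.000242). Over all genes the block raised the share called to 24.8% in WT and 28.3% in KO. Depth limits Il5ra, with at most 22 counts in any MPP4 library, and the spread between replicates limits Csf2rb2.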
